A study of Mus musculus with 12 samples.

Results

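Among 16283 genes counted by RNA sequencing in 4T1 cells, 50 were selected for a higher level after interferon gamma (IFN-γ) in the control line and not in either line carrying a guide against Cebpd. The 50 genes were chosen by their own CPM, the counts of a library scaled by the total of its column, averaged over the 2 libraries of each group. A gene was taken if its mean reached 5 CPM in Rosa26 cells with IFN-γ and its IFN-γ over vehicle ratio, after adding 0.1 CPM to both means, was at least 2.5 in Rosa26 cells. That ratio also had to be at most 1.1 in each of the guide lines. These ratios therefore describe the selection and are given without a test. All 50 genes passed the low-count filter, which kept 13601 of the 16283 genes.

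The 4T1 line comes from a mammary carcinoma of a BALB/c mouse. The series asks how the transcriptome of this line responds to IFN-γ when Cebpd is intact or lost. It holds 12 libraries in 6 groups of 2. The guide lines carried Cebpd_sgRNA2 or Cebpd_sgRNA1, and each was given IFN-γ at 20 ng/ml for 24 h or vehicle. The control line had the same treatments and carried a guide against Rosa26, where a cut is taken to be harmless. The sources used here do not give the cut sites of the guides or whether a line is 1 clone or a pool of edited cells. Separate cultures are not stated for the 2 libraries of a group, so p-values rest on the spread between samples that may be technical repeats.

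IFN-γ signals through its receptor and JAK kinases and raises chemokine, antigen presentation and guanylate-binding protein genes, many of which hold palindromic promoter sites named GAS. The factor C/EBPδ, encoded by Cebpd, binds DNA through a basic leucine zipper, is raised by cytokines and acts on inflammatory genes. None of the 50 genes is on the interferon gamma response list. All 37 tested genes of that list were called higher with IFN-γ in the sgRNA2, sgRNA1 and Rosa26 lines alike. The rule leaves out genes raised in the guide lines, so this absence follows from the selection. The members include a circadian output factor, an inhibitor of translation, adaptors of ubiquitin ligases, secreted enzymes, glycolytic isozymes and detoxifying enzymes.

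Promoter sequence was taken from RefSeq (GRCm38.p6) as 250 bases before to 50 bases after a transcript start, and 39 of the 50 genes had at least 1 such window. The windows of 5 genes are shown as examples, those of Dbp, Pdcd4 and Aldoc for GAS matches and those of Asb2 and Mxd4 for holding both a C/EBP match and an E-box. Other member windows with a match are not printed, among them a Gpr146 window with a GAS match and an E-box. The sequences are written 5′ to 3′ on the gene's strand, with matches to the GAS motif TTCNNNGAA, the C/EBP motif TTGCNNAA or the E-box CACGTG in capitals on either strand. The Dbp window lies at chr7:45704997-45705296 on the plus strand and that of Pdcd4 at chr19:53891981-53892280 on the plus strand. The Aldoc window lies at chr11:78323948-78324247 on the plus strand, that of Asb2 at chr12:103355952-103356251 on the minus strand and that of Mxd4 at chr5:34187661-34187960 on the minus strand.
Dbp: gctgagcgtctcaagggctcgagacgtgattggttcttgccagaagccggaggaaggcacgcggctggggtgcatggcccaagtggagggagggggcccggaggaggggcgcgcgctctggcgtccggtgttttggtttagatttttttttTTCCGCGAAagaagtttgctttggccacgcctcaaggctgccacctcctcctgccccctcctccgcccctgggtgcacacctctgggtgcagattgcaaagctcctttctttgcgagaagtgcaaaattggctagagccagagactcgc
Pdcd4: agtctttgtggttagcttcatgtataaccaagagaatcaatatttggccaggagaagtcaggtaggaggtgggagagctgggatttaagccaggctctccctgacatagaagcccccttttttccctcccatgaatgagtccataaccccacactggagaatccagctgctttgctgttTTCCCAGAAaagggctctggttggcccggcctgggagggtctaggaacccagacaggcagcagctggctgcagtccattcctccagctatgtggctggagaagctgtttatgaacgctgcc
Aldoc: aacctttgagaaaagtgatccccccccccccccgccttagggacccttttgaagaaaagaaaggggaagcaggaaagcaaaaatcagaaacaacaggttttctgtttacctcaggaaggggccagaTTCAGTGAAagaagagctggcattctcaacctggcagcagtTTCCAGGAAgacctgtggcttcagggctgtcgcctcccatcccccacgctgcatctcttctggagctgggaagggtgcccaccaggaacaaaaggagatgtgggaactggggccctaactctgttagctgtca
Asb2: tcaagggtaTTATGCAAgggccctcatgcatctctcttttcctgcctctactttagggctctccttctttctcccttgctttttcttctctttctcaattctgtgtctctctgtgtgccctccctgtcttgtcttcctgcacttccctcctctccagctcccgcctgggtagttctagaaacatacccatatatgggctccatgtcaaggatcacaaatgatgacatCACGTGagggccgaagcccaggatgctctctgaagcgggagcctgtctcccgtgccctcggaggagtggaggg
Mxd4: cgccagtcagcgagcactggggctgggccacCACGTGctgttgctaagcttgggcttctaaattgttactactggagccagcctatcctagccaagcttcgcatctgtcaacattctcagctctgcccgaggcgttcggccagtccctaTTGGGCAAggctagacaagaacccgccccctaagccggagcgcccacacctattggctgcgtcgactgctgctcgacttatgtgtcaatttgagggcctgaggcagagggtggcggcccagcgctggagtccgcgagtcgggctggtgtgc
The capitals in the Dbp and Pdcd4 windows are 1 GAS match each, whose first base is at −99 and −71 relative to the transcript start. In the Aldoc window they are 2 GAS matches, at −124 and −83. The first capitals in the Asb2 window match the C/EBP motif on the opposite strand and the later ones are the E-box, at −23. In the Mxd4 window the E-box comes first, at −219, and the C/EBP match follows at −101.

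A GAS match was found in a window of 8 of the 39 member genes, or 20.5%, and in 8.37% of all tested genes with a window. These 8 genes were Aldoc, Dbp, Ddah2, Gpr146, Mgst1, Pdcd4, Phyhd1 and Proser3. The C/EBP motif was in 15.4% of the member genes and 9.82% of the tested genes, and the E-box in 17.9% and 11.7%. The core ACGTG, which the E-box contains, was in 30.8% of the member genes and 29.4% of the tested genes. GTAAACA, the core of FOXO sites, was in 10.3% and 3.11%, and TGANTCA, the AP-1 motif, in 12.8% and 6.71%. The pair GAAANNGAA of interferon-stimulated elements was in the Asb2 window alone, or 2.56% of member genes against 8.6% of tested genes. The D-box TTATGTAA was in no member window and in 0.608% of the tested genes. The 39 member genes had 61 windows and the 10026 tested genes 12837, so members had more windows per gene in which a match could fall. By window, a GAS match was in 14.8% of member windows and 8.3% of all windows, untested genes included. The C/EBP motif was in 13.1% and 10.8%, and the E-box in 14.8% and 7.15%. Member windows had a median GC content of 58.7% against 60.7% for those of tested genes. A match is a run of letters and not a measured site.

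RNA of the targeted gene was present in the guide lines. Cebpd stood at 30.2 and 30.2 CPM in sgRNA2 libraries with IFN-γ, against 10.3 and 8.19 CPM with vehicle. It stood at 49.8 and 49.8 CPM in sgRNA1 libraries with IFN-γ, against 13.4 and 13.1 CPM with vehicle. In Rosa26 libraries it stood at 51.5 and 47.4 CPM with IFN-γ, against 8.99 and 7.07 CPM with vehicle. Small insertions and deletions made by Cas9 need not lower a transcript, so these counts do not check whether C/EBPδ protein was lost. Cebpd was lower with sgRNA2 than with sgRNA1 both in vehicle (log2 fold change −0.50 ± 0.12, adjusted p = 0.00135) and in IFN-γ (−0.62 ± 0.09, adjusted p = 1.27e-05), by the quasi-likelihood test of edgeR with Benjamini-Hochberg adjustment over all 13601 genes.

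Library totals lay between 16912710 and 24784371 counts. The labels name a breast cancer line, and all 19 epithelial markers of the list reached 1 CPM. So did 8 of the 11 mesenchymal markers, with Vim, Fn1 and S100a4 carrying most of their sum. In Rosa26 cells the mesenchymal sum was 5702 to 5723 CPM with IFN-γ and 4656 to 4820 CPM with vehicle. The epithelial sum there was 5121.5 to 5174 CPM and 4816 to 4846 CPM. With either guide the mesenchymal sum was below the epithelial sum in both treatments. Among other cell types, the myeloid markers Ptprc and Itgam stayed at or below 0.374 and 0.101 CPM in every group mean. Other myeloid markers were higher. Csf1r averaged 7.99 CPM with sgRNA2 and vehicle and S100a8 4.17 CPM with sgRNA2 and IFN-γ. Ly6c2 averaged 4.12 CPM with Rosa26 and IFN-γ. Of the 5 endothelial markers in the table, Pecam1 and Cdh5 stayed at or below 0.242 and 0.152 CPM in every group mean. The 5 together summed to 12.39 to 14.98 CPM with sgRNA2 and IFN-γ, against 24.9 to 25.2 CPM with vehicle, to 9.98 to 11.2 CPM with sgRNA1 and IFN-γ, against 13.4 to 13.7 CPM with vehicle, and to 6.80 to 8.28 CPM with Rosa26 and IFN-γ, against 9.41 to 11.5 CPM with vehicle. Egfl7 carried most of each endothelial sum. The 7 myeloid genes together summed to 51.9 CPM in both sgRNA2 libraries with IFN-γ, against 46.5 and 48.7 CPM with vehicle. They summed to 47.2 to 47.5 CPM with sgRNA1 and IFN-γ, against 28.2 to 29.8 CPM with vehicle. In Rosa26 cells they summed to 48.0 to 48.4 CPM with IFN-γ, against 14.5 to 16.6 CPM with vehicle, and Cd68 and Cd14 carried most of these sums. The part of both lists in the members' values was not tested. None of the lymphoid markers of the list was in the table.

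Across the 50 genes the Rosa26 ratio ran between 2.51 and 11.4 (median 3.27), against a median of 0.982 over all tested genes. With sgRNA2 the ratio ran between 0.200 and 0.992 (median 0.488), and with sgRNA1 between 0.301 and 1.09 (median 0.881), while the medians over all tested genes were 1.04 and 1.11. By this ratio the IFN-γ level was at least 1.5-fold below the vehicle level in 41 of the 50 genes with sgRNA2 and in 9 with sgRNA1. The rule set the same upper limit for both. The ratio was lower with sgRNA2 than with sgRNA1 in 48 of the 50. Because the rule selected on these ratios and the shares over all genes are not given, nothing is read from these counts. Of the 686 genes that met the Rosa26 conditions, 234 met the limit with sgRNA2 and 52 with sgRNA1, so the sgRNA1 limit removed most of the candidates. The sgRNA1 limit lay just below the median sgRNA1 ratio of all genes on this scale. On CPM from library sizes scaled by TMM, edgeR's trimmed mean of M-values, 96 genes met the rule, the 50 among them.

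The label of the set says that IFN-γ induces these genes in control cells alone, and their levels add to that description. In 32 of the 50 genes the sgRNA2 vehicle mean was already above the Rosa26 IFN-γ mean, and for sgRNA1 this held for Coro6 only. The rule used these means in its ratios and the share over all genes is not given, so nothing is read from these counts. The vehicle level with sgRNA2 was 1.34 to 23.5 times that of Rosa26 (median 4.36), and with sgRNA1 0.568 to 5.32 times (median 1.502), against medians of 1.02 and 1.01 over all tested genes. In IFN-γ the sgRNA2 level was 0.0542 to 1.68 times that of Rosa26 (median 0.551), and the sgRNA1 level 0.0329 to 0.899 times (median 0.348), against 1.07 and 1.13 over all tested genes. These are bulk samples, in which fewer cells expressing a gene and less RNA per cell cannot be told apart.

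**Figure D1:**
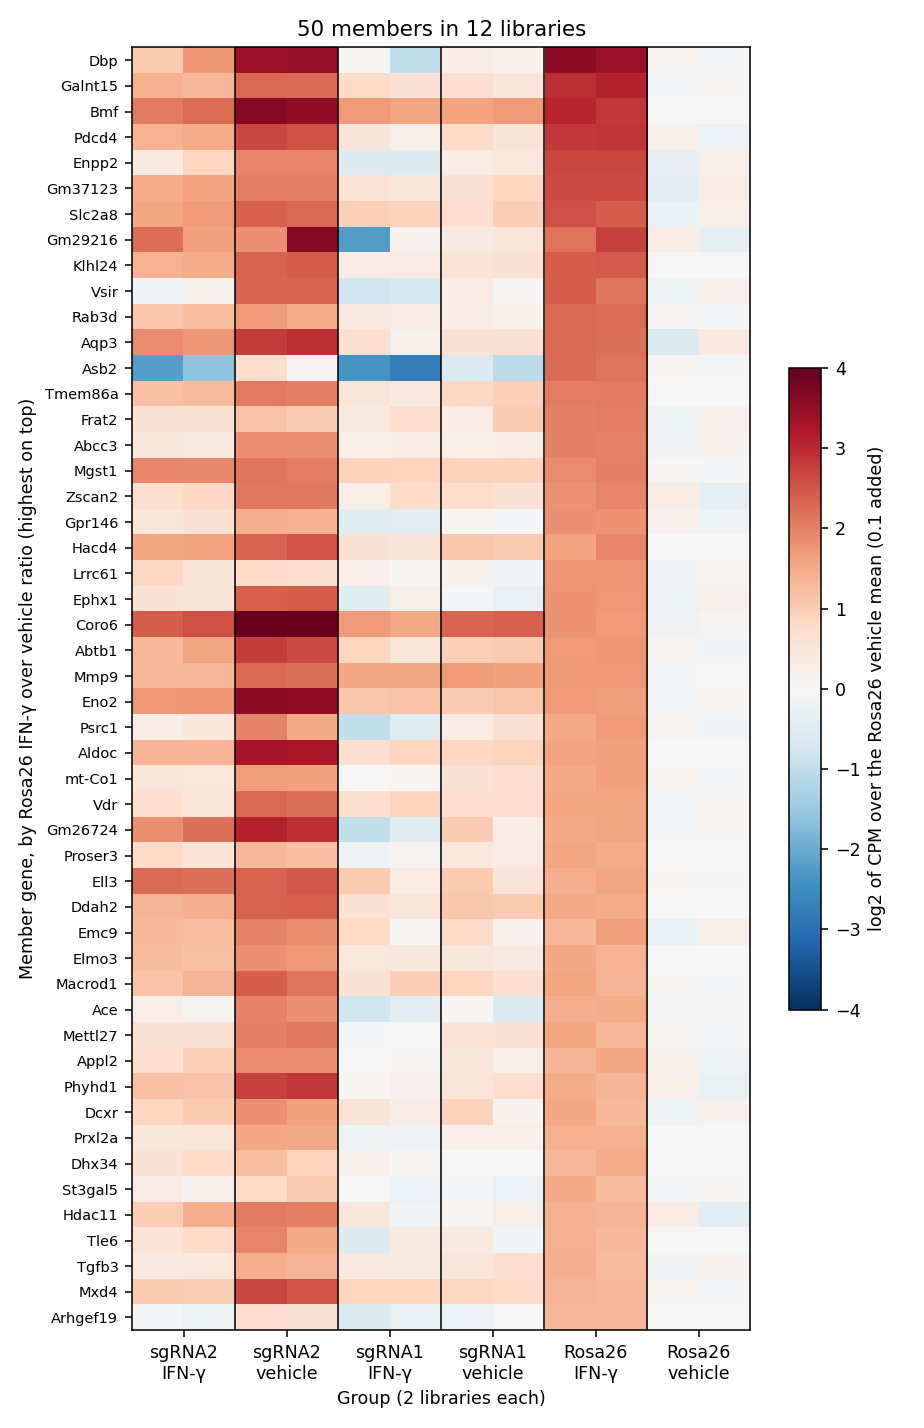
Each row is 1 of the 50 genes, ordered by its Rosa26 ratio with the highest on top, and each column 1 of the 12 libraries. The colour is the log2 of the library's CPM over the Rosa26 vehicle mean, with 0.1 added to both, and values past the ends of the scale take the end colours. The sgRNA2 vehicle columns are as red as the Rosa26 IFN-γ columns for many genes, while the sgRNA1 columns stay pale for most.

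Counts of separated libraries describe the same contrasts, and they were made on CPM scaled by TMM, a method that balances library composition, while the levels printed are CPM by column total. With vehicle, both libraries of both guide lines lay above both Rosa26 libraries in 37 of the 50 genes, against 29.7% of all tested genes. This held in 50 genes for sgRNA2 alone (45.2% of all genes) and in 37 for sgRNA1 alone (38.8%). With IFN-γ, all 4 guide libraries lay below both Rosa26 libraries in 44 genes (31.1% of all genes), sgRNA2 alone in 44 (39.5%) and sgRNA1 alone in 50 (41.5%). With IFN-γ the sgRNA2 libraries lay above the Rosa26 libraries in 3 genes, namely Coro6, Ell3 and Gm26724, against 40.5% of all genes. By column total Eno2 joined them (44.8% of all genes), and the count of all 4 guide libraries below Rosa26 was 41 (24%). Because the rule used these libraries in its ratios, nothing is read from these counts. The background of called genes was also high in the fits of edgeR's quasi-likelihood test at an adjusted p below 0.05. IFN-γ raised 30.5% and lowered 29.2% of tested genes with sgRNA2, 31.7% and 29.6% with sgRNA1, and 36.4% and 34.1% in Rosa26 cells. The mean of both guides over Rosa26 was higher in 34% and lower in 33.7% with vehicle, and higher in 32.5% and lower in 33.4% with IFN-γ.

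The 2 guides were also compared with each other. The rule did not bound this difference itself, but its ratios used the same libraries. Its limits can favour genes with a high vehicle level in a guide line. The counts and p-values of this comparison, in either treatment, therefore describe the selected genes and are not evidence apart from the selection. In vehicle, 49 of the 50 genes were called higher with sgRNA2 than with sgRNA1 and none lower, by the quasi-likelihood test of edgeR with Benjamini-Hochberg adjustment over all 13601 genes. Over all tested genes 33.2% were called higher and 29.1% lower in this comparison. The median difference was 1.56 on the log2 scale, or 2.94-fold, against 0.05 over all tested genes. Of the 636 other genes that met the Rosa26 conditions, 83.2% were called higher, with a median of 0.91 or 1.87-fold. A vehicle difference between the guides was therefore common among Rosa26-responsive genes in general. Both sgRNA2 libraries lay above both sgRNA1 libraries in all 50 genes on either scale, in Frat2 by less than the rounding of the values given next, against 43% of all tested genes on the TMM scale. The exception in the test was Frat2, a GSK3-binding protein of the Wnt pathway, at 3.87 and 3.55 CPM with sgRNA2, against 2.18 and 3.55 CPM with sgRNA1 (0.41 ± 0.24, adjusted p = 0.138). Without the second sgRNA1 vehicle library Frat2 was called too (0.79, adjusted p = 0.0206).

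In IFN-γ, 42 of the 50 genes were called higher with sgRNA2 than with sgRNA1, 1 lower and 7 neither, where 23.4% of all tested genes were called higher and 24.5% lower. The median difference was 0.85, or 1.80-fold, against −0.0005 over all genes. Among the 636 other genes that met the Rosa26 conditions, 53.6% were called higher, with a median of 0.24 or 1.18-fold. Both sgRNA2 libraries lay above both sgRNA1 libraries in 47 genes on the TMM scale, against 36.3% of all genes, and in 45 by column total (27%). They lay below them in 1 gene, Mmp9, on either scale, against 37% and 46.7% of all genes. The 7 uncalled genes were Asb2, Frat2, Abcc3, Zscan2, Vdr, Tgfb3 and Mxd4. The difference was larger in vehicle than in IFN-γ in 48 of the 50 genes, Gm26724 and Gm29216 being the exceptions. This restates the count of genes with a lower ratio in sgRNA2 than in sgRNA1 cells, so nothing is read from it. The change between the treatments was not tested, since it is the ratio of ratios that the rule had bounded.

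**Figure D2:**
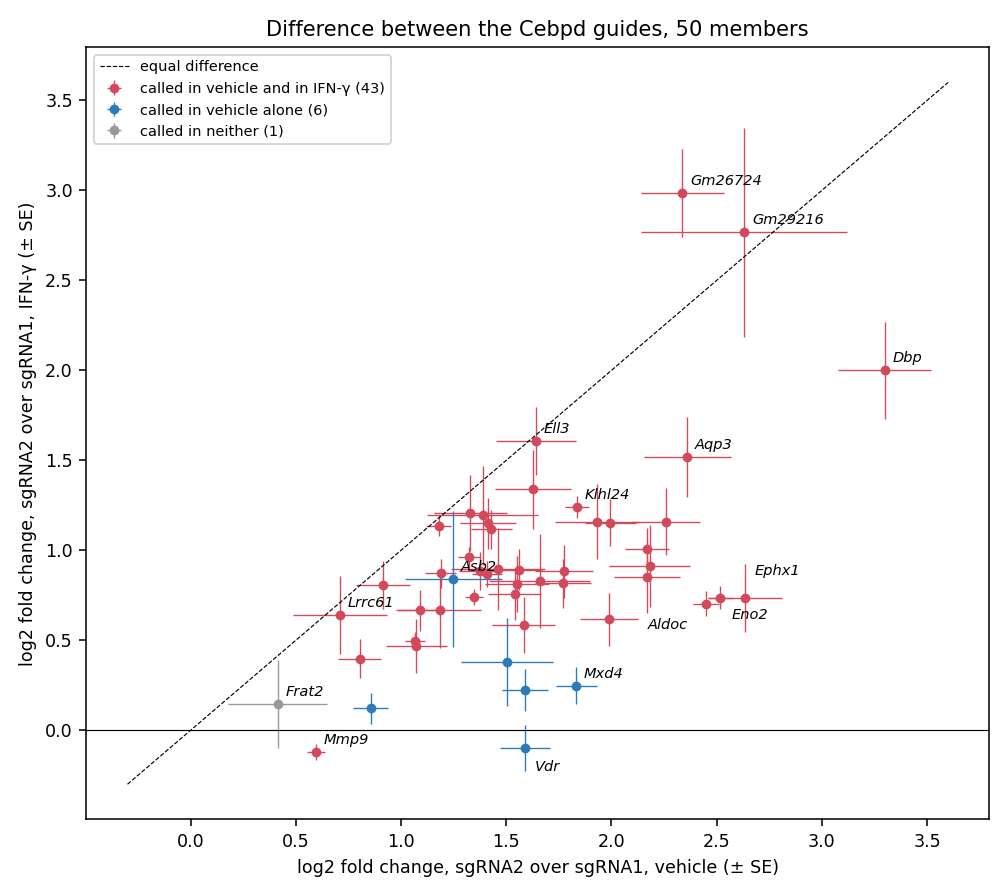
Each point is 1 of the 50 genes, with the log2 fold change of sgRNA2 over sgRNA1 in vehicle on the x axis and in IFN-γ on the y axis, and bars of 1 SE from edgeR. Red genes were called in both treatments (43), blue genes in vehicle alone (6) and the grey gene in neither (1). All but 2 points lie below the dashed line of equal difference, a position that restates the ratios used by the rule. Mmp9 and Vdr lie below 0 on the y axis.

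Transcription and chromatin genes made up 7 of the members. Dbp, which encodes the circadian output factor of the PAR leucine zipper family (chr7:45705088-45710203, plus strand), had the highest Rosa26 ratio. It stood at 3.81 and 6.42 CPM with sgRNA2 and IFN-γ, against 20.9 and 21.0 CPM with vehicle. With sgRNA1 it stood at 1.88 and 0.868 CPM with IFN-γ, against 2.23 and 2.07 CPM with vehicle. In Rosa26 cells it stood at 22.4 and 20.8 CPM with IFN-γ, against 1.89 and 1.71 CPM with vehicle. The sgRNA2 vehicle and Rosa26 IFN-γ libraries were high and close to each other, and the other 8 libraries were lower, with no overlap. Dbp also had the largest guide difference in vehicle (3.30 ± 0.22, adjusted p = 5.03e-10), 9.84-fold, and was higher with sgRNA2 in IFN-γ too (2.001 ± 0.27, adjusted p = 8.12e-06). Of its exons, 18.0% overlap Sphk2 on the opposite strand, and the library kit does not mark strand.

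Mxd4, a MAX partner that opposes MYC, stood at 14.3 and 13.6 CPM with sgRNA2 and IFN-γ, against 44.9 and 40.05 CPM with vehicle. With sgRNA1 it stood at 12.6 and 12.6 CPM with IFN-γ, against 12.3 and 11.9 CPM with vehicle. Rosa26 libraries had 18.0 and 17.4 CPM with IFN-γ, against 7.31 and 6.495 CPM with vehicle. The 2 sgRNA2 vehicle libraries were the highest of the 12, above Rosa26 with IFN-γ. The guides differed in vehicle (1.83 ± 0.10, adjusted p = 2.55e-11) but the difference in IFN-γ missed the threshold (0.25 ± 0.10, adjusted p = 0.0590). Vdr, the vitamin D receptor, had a like profile, with 8.91 and 7.87 CPM with sgRNA2 against 8.83 and 10.4 CPM with sgRNA1 in IFN-γ, which overlapped. In vehicle Vdr had 27.5 and 25.8 CPM with sgRNA2 against 9.10 and 8.87 CPM with sgRNA1 (1.59 ± 0.12, adjusted p = 1.92e-09).

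Ell3, an RNA polymerase elongation factor, kept its sgRNA2 level near that of vehicle. It stood at 14.3 and 13.7 CPM with sgRNA2 and IFN-γ, against 15.2 and 16.7 CPM with vehicle, and at 6.09 and 3.69 CPM with sgRNA1 and IFN-γ, against 6.08 and 4.20 CPM with vehicle. Rosa26 cells gave 8.05 and 8.98 CPM with IFN-γ, against 3.07 and 2.75 CPM with vehicle. All 4 sgRNA2 libraries were thus above every Rosa26 and sgRNA1 library. However, 65.6% of the Ell3 exons overlap Serinc4 on the same strand, so its counts may hold reads of that gene. Hdac11, a deacetylase, Tle6, of the Groucho co-repressor family, and Zscan2, a zinc finger gene, had Rosa26 ratios of 2.62, 2.57 and 3.65. In vehicle the 3 genes were higher with sgRNA2 than with sgRNA1 by 1.93 ± 0.20, 1.66 ± 0.24 and 1.504 ± 0.22 on the log2 scale.

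Genes of translation, RNA decay and cell death included Pdcd4, which encodes an inhibitor of the translation helicase eIF4A (chr19:53892231-53929860, plus strand). Pdcd4 stood at 16.6 and 17.5 CPM with sgRNA2 and IFN-γ, against 40.7 and 36.8 CPM with vehicle. It stood at 9.04 and 7.38 CPM with sgRNA1 and IFN-γ, against 10.6 and 8.99 CPM with vehicle. Its Rosa26 libraries had 45.2 and 46.1 CPM with IFN-γ, against 7.25 and 5.25 CPM with vehicle. The Rosa26 IFN-γ libraries were the highest, the sgRNA2 vehicle libraries next and those of sgRNA1 lower in both treatments. The guide difference was 1.995 ± 0.12 in vehicle (adjusted p = 1.27e-10) and 1.15 ± 0.13 in IFN-γ (adjusted p = 1.16e-06).

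Bmf, a BH3-only promoter of apoptosis, had 19.4 and 18.4 CPM with sgRNA2, 4.65 and 5.03 CPM with sgRNA1 and 1.48 and 1.46 CPM with Rosa26 in vehicle. In IFN-γ it had 6.496 and 7.26 CPM with sgRNA2, 5.03 and 4.61 CPM with sgRNA1 and 12.9 and 10.96 CPM with Rosa26. Its vehicle level was therefore graded over the 3 lines with no overlap, and its IFN-γ level was graded in another order. Dhx34, a helicase of nonsense-mediated decay, had a Rosa26 ratio of 2.65 and a vehicle guide difference of 1.09 ± 0.11 (adjusted p = 1.73e-07).

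Adaptors of ubiquitin ligases came next. Klhl24, a BTB and kelch protein that brings substrates to cullin-3 (chr16:20097542-20129221, plus strand), had 44.5 and 47.7 CPM with sgRNA2 and IFN-γ, against 87.8 and 90.9 CPM with vehicle. With sgRNA1 it had 20.9 and 21.0 CPM with IFN-γ, against 24.9 and 26.0 CPM with vehicle. Rosa26 libraries had 91.5 and 91.8 CPM with IFN-γ, against 16.6 and 17.1 CPM with vehicle. The spread within groups was small beside these differences, and sgRNA2 with vehicle nearly equalled Rosa26 with IFN-γ. Klhl24 was higher with sgRNA2 than with sgRNA1 in vehicle (1.83 ± 0.06, adjusted p = 3.86e-14) and in IFN-γ (1.24 ± 0.06, adjusted p = 1.08e-10).

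Asb2, a SOCS-box subunit of a ligase that marks filamins for degradation (chr12:103321142-103356001, minus strand), had the lowest IFN-γ levels relative to Rosa26 among the 50 genes, with both guides. Asb2 stood at 0.913 and 1.41 CPM with sgRNA2 and IFN-γ, against 7.45 and 4.70 CPM with vehicle. It stood at 0.812 and 0.597 CPM with sgRNA1 and IFN-γ, against 3.02 and 2.13 CPM with vehicle. Rosa26 cells gave 22.3 and 20.6 CPM with IFN-γ, against 4.75 and 4.31 CPM with vehicle. Within each guide line the 2 IFN-γ libraries lay below the 2 vehicle libraries, and the Rosa26 IFN-γ libraries lay above all others. The ratio was 0.205 with sgRNA2 and 0.301 with sgRNA1, against 4.65 with Rosa26. The guides differed in vehicle (1.249 ± 0.23, adjusted p = 0.000135), and in IFN-γ the difference was 0.84 ± 0.38 (adjusted p = 0.0763). That IFN-γ difference was called without the first or the second sgRNA2 vehicle library (adjusted p = 0.0479 and 0.0477) and without the first sgRNA2 IFN-γ library (1.06, adjusted p = 0.0488). Abtb1, an ankyrin and BTB protein, had a Rosa26 ratio of 3.34 and a vehicle guide difference of 1.77 ± 0.14 (adjusted p = 3.19e-09).

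**Figure D3:**
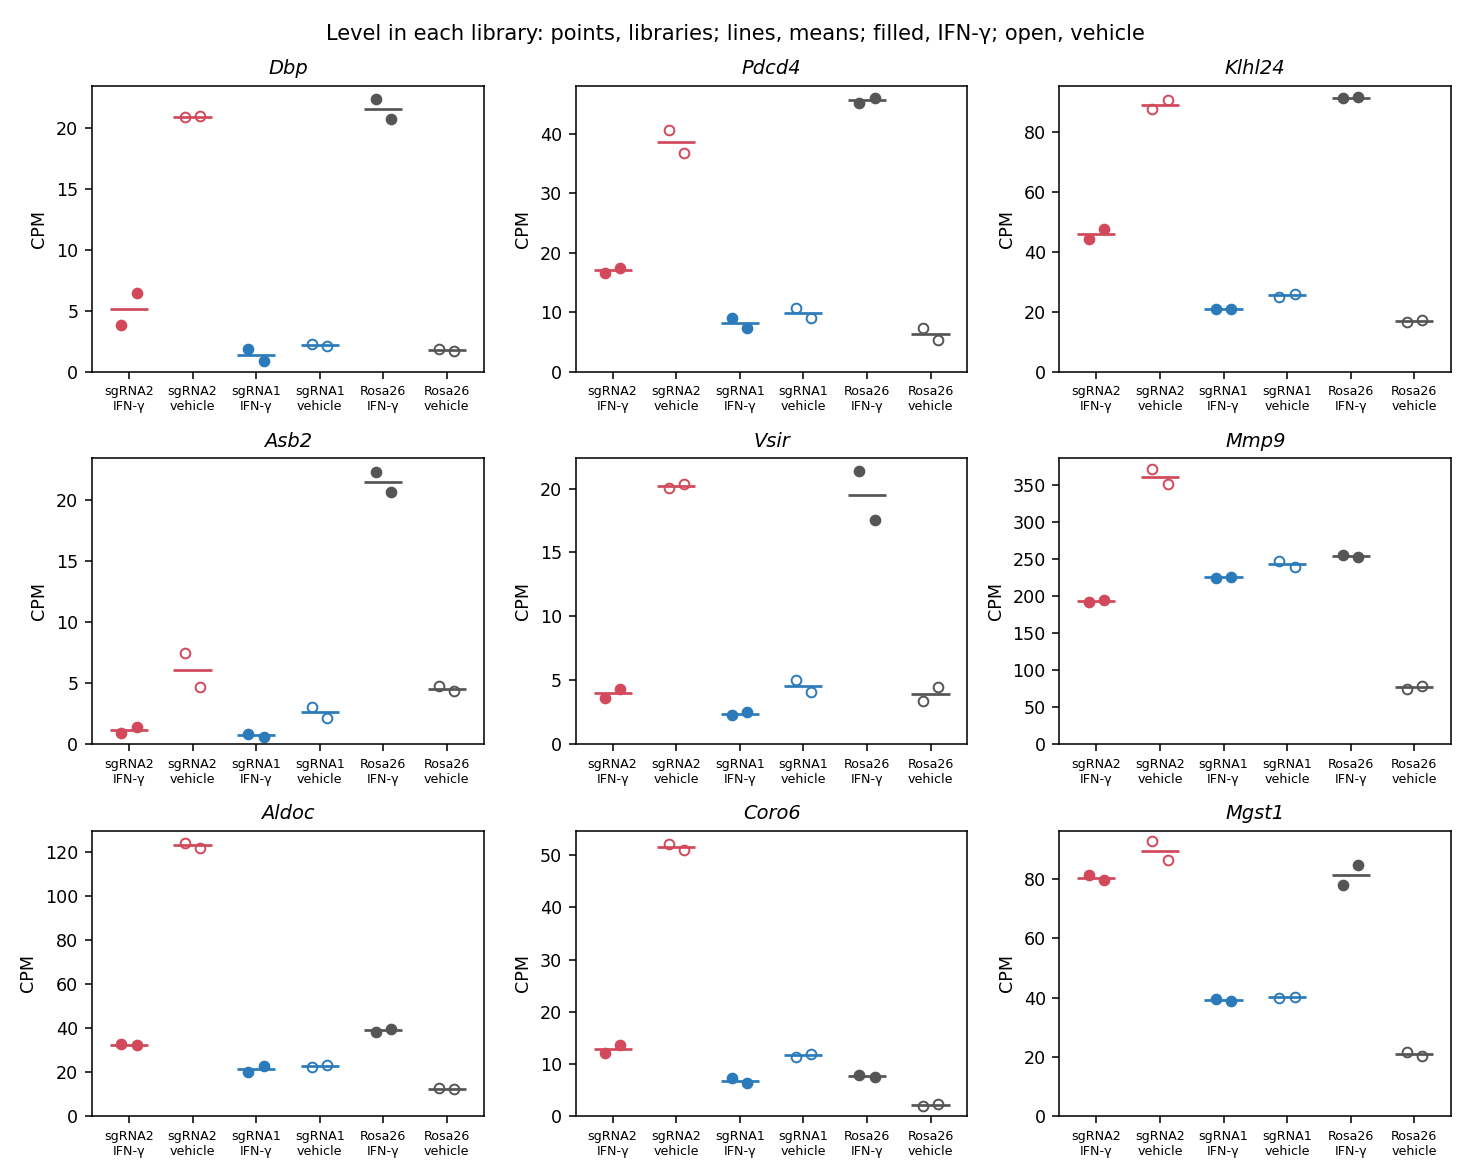
CPM of 9 of the 50 genes in each library, with filled points for IFN-γ, open points for vehicle and a line at the mean of 2 libraries. In Dbp, Pdcd4, Klhl24 and Vsir the open sgRNA2 points and the filled Rosa26 points stand apart from the rest, while in Asb2 the filled Rosa26 points alone are high.

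Secreted and cell surface genes numbered 7. Vsir, which encodes the immune checkpoint protein VISTA (chr10:60346851-60372684, plus strand), had 3.597 and 4.32 CPM with sgRNA2 and IFN-γ, against 20.1 and 20.4 CPM with vehicle. It had 2.23 and 2.495 CPM with sgRNA1 and IFN-γ, against 4.99 and 4.08 CPM with vehicle. Rosa26 libraries had 21.4 and 17.6 CPM with IFN-γ, against 3.37 and 4.47 CPM with vehicle. The sgRNA2 vehicle and Rosa26 IFN-γ libraries overlapped and stood above all others. Its sgRNA2 ratio of 0.200 was the lowest of the 50, and its guide difference was 2.17 ± 0.16 in vehicle (adjusted p = 1.47e-09).

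Mmp9, gelatinase B, which degrades basement membrane collagen (chr2:164940780-164955850, plus strand), had another order of groups. It stood at 192 and 194 CPM with sgRNA2 and IFN-γ, against 372 and 352 CPM with vehicle. It stood at 225 and 226 CPM with sgRNA1 and IFN-γ, against 247 and 239 CPM with vehicle. Its Rosa26 libraries had 256 and 253 CPM with IFN-γ, against 74.9 and 78.3 CPM with vehicle. The Rosa26 vehicle libraries were the lowest of the 12, and the other 5 groups lay within 192 to 372 CPM. Mmp9 was higher with sgRNA2 than with sgRNA1 in vehicle (0.59 ± 0.04, adjusted p = 1.14e-09) and lower in IFN-γ (−0.12 ± 0.04, adjusted p = 0.0261). The IFN-γ call was lost without either sgRNA1 IFN-γ library (adjusted p = 0.0805 and 0.0877) or without the second sgRNA2 IFN-γ library (0.108). The other 21 tested genes of the matrix metalloproteinase and inhibitor list showed no common direction. Of these, 6 were called higher and 7 lower with IFN-γ in sgRNA2 cells, 10 and 6 in sgRNA1 cells, and 9 and 7 in Rosa26 cells.

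Enpp2 encodes autotaxin, the secreted enzyme that makes lysophosphatidic acid. It had 3.33 and 4.64 CPM with sgRNA2 and IFN-γ, against 10.1 and 10.1 CPM with vehicle, and 1.73 and 1.68 CPM with sgRNA1 and IFN-γ, against 3.21 and 3.43 CPM with vehicle. In Rosa26 cells it had 16.7 and 16.5 CPM with IFN-γ, against 1.99 and 3.07 CPM with vehicle. Rosa26 with IFN-γ was the highest group, above sgRNA2 with vehicle, and the guides differed in vehicle (1.63 ± 0.18, adjusted p = 4.09e-07) and in IFN-γ (1.34 ± 0.22, adjusted p = 7.51e-05). Gpr146, an orphan G protein-coupled receptor, had 39.9 and 39.1 CPM with sgRNA2, 15.5 and 14.2 CPM with sgRNA1 and 16.6 and 12.7 CPM with Rosa26 in vehicle, where the last 2 groups overlapped. In IFN-γ, Gpr146 had 20.3 and 22.3 CPM with sgRNA2, 10.46 and 10.6 CPM with sgRNA1 and 51.8 and 50.9 CPM with Rosa26. Ace, the angiotensin-converting enzyme, had a vehicle guide difference of 2.18 ± 0.19 (adjusted p = 2.11e-08).

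Tgfb3, a TGF-β ligand, had 26.6 and 27.7 CPM with sgRNA2 and IFN-γ, against 55.8 and 53.05 CPM with vehicle. It had 27.0 and 26.5 CPM with sgRNA1 and IFN-γ, against 28.7 and 32.5 CPM with vehicle, and 55.8 and 49.8 CPM with Rosa26 and IFN-γ, against 18.6 and 22.3 CPM with vehicle. The difference between the guides was not called in IFN-γ (0.12 ± 0.09, adjusted p = 0.270), where their libraries overlapped by column total and not on the TMM scale, and was called in vehicle (0.86 ± 0.08, adjusted p = 5.42e-08). Of the 29 other tested genes of the TGF-β target and matrix list, 8 were called higher and 15 lower with IFN-γ in sgRNA2 cells, 15 and 6 in sgRNA1 cells, and 18 and 4 in Rosa26 cells. The list medians were −0.32, 0.35 and 0.53 on the log2 scale, against −0.02, −0.0007 and 0.01 over all tested genes. Fn1, fibronectin, averaged 1694 CPM with IFN-γ and 1676 CPM with vehicle in sgRNA2 cells. It averaged 2117 CPM with IFN-γ and 1148 CPM with vehicle in sgRNA1 cells, and 2908 CPM with IFN-γ and 1762 CPM with vehicle in Rosa26 cells. Its IFN-γ change was called in sgRNA1 cells (0.73 ± 0.04, adjusted p = 1.04e-11) and in Rosa26 cells (0.76 ± 0.04, adjusted p = 2.48e-12), and was −0.05 ± 0.04 in sgRNA2 cells (adjusted p = 0.228).

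Membrane transport was represented by 3 genes, all higher with sgRNA2 than with sgRNA1 in vehicle, as were 49 of the 50 genes and 33.2% of all tested genes. Aqp3, a channel for water and glycerol, had 13.4 and 14.97 CPM with sgRNA2, 2.82 and 2.78 CPM with sgRNA1 and 1.23 and 2.44 CPM with Rosa26 in vehicle. With IFN-γ it had 7.14 and 6.496 CPM with sgRNA2, 2.995 and 2.06 CPM with sgRNA1 and 9.17 and 8.88 CPM with Rosa26. The guide difference was 2.36 ± 0.21 in vehicle (adjusted p = 1.84e-08) and 1.52 ± 0.22 in IFN-γ (adjusted p = 1.93e-05). Slc2a8, the glucose transporter GLUT8, and Abcc3, an exporter of conjugated organic anions, had Rosa26 ratios of 5.64 and 3.99. In IFN-γ the guides differed for Slc2a8 (0.81 ± 0.15, adjusted p = 0.000291), and for Abcc3 the difference was 0.23 ± 0.12 (adjusted p = 0.124).

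Glycolysis contributed the aldolase and enolase isozymes Aldoc and Eno2, both also on the hypoxia and glycolysis list. Aldoc (chr11:78322968-78327781, plus strand) had 32.7 and 32.3 CPM with sgRNA2 and IFN-γ, against 124 and 122 CPM with vehicle. It had 20.0 and 22.8 CPM with sgRNA1 and IFN-γ, against 22.5 and 23.2 CPM with vehicle. Rosa26 libraries had 38.5 and 39.5 CPM with IFN-γ, against 12.8 and 12.4 CPM with vehicle. The sgRNA2 vehicle libraries stood far above all others, those of Rosa26 with IFN-γ included. Eno2 had 37.5 and 38.7 CPM with sgRNA2 and IFN-γ, against 134 and 133 CPM with vehicle. It had 24.3 and 24.8 CPM with sgRNA1 and IFN-γ, against 22.9 and 24.5 CPM with vehicle, and 36.7 and 35.8 CPM with Rosa26 and IFN-γ, against 10.52 and 11.9 CPM with vehicle. Both were higher with sgRNA2 than with sgRNA1 in vehicle, Aldoc by 2.45 ± 0.06 (adjusted p = 3.00e-15) and Eno2 by 2.52 ± 0.06 (adjusted p = 1.82e-15). In IFN-γ these differences were 0.70 ± 0.07 (adjusted p = 2.16e-07) and 0.74 ± 0.06 (adjusted p = 5.99e-08).

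That list held 35 other tested genes, and 5 of the 26 lists with a gene in the table held any member. With IFN-γ, 4 of the 35 were called higher and 31 lower in sgRNA2 cells, 16 and 10 in sgRNA1 cells, and 22 and 7 in Rosa26 cells. The list medians were −0.90, 0.15 and 0.32 on the log2 scale. In vehicle 32 of the 35 were higher with sgRNA2 than with sgRNA1 and 2 lower, with a median of 0.93, where 33.2% of all tested genes were called higher and 29.1% lower. Vegfa, the angiogenic growth factor, averaged 61.0 CPM with IFN-γ and 225 CPM with vehicle in sgRNA2 cells, and fell by 1.95 on the log2 scale (adjusted p = 3.87e-15). In sgRNA1 cells it averaged 54.8 CPM with IFN-γ and 50.2 CPM with vehicle (−0.02 ± 0.06, adjusted p = 0.813, edgeR's quasi-likelihood test). In Rosa26 cells it averaged 40.6 CPM with IFN-γ and 23.4 CPM with vehicle, and rose by 0.83 ± 0.07 (adjusted p = 6.69e-09). Ndrg1 averaged 653 CPM with IFN-γ and 1131 CPM with vehicle in sgRNA2 cells, 639 and 265 CPM in sgRNA1 cells, and 1062 and 409 CPM in Rosa26 cells. Car9, a hypoxia-induced carbonic anhydrase, missed membership only by its sgRNA1 ratio, which was 1.1001.

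**Figure D4:**
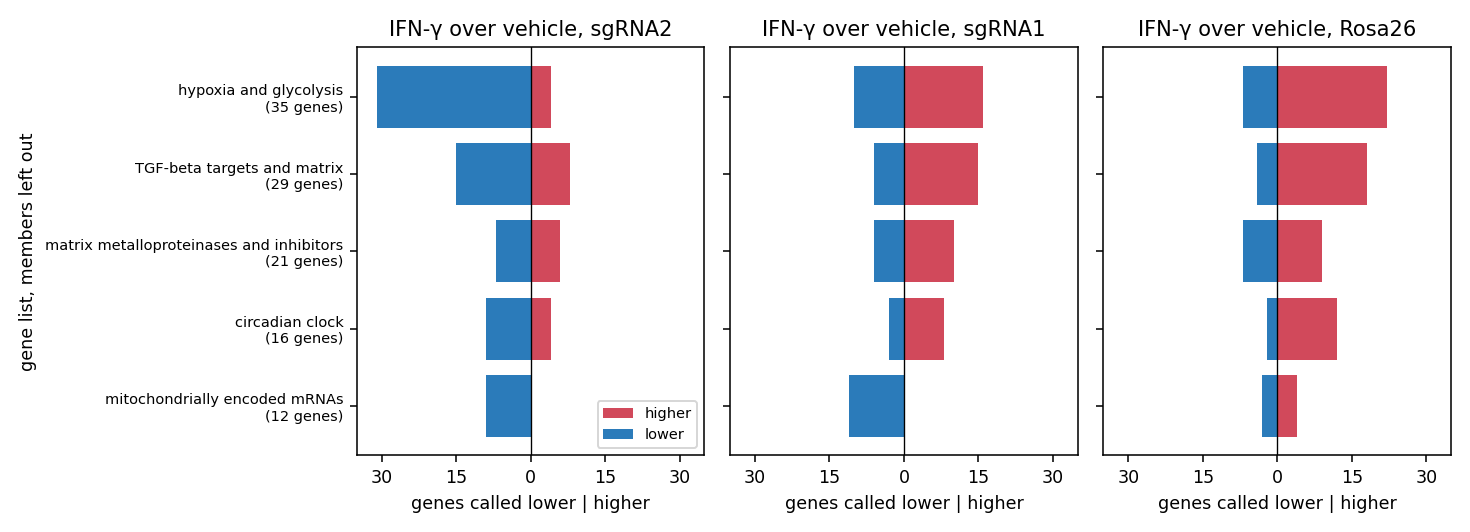
Bars give the number of genes called lower (blue, left) or higher (red, right) with IFN-γ over vehicle in sgRNA2, sgRNA1 and Rosa26 cells, for the 5 lists that hold members, with the members left out. In the hypoxia and glycolysis list 31 of 35 genes were lower in sgRNA2 cells, while in Rosa26 cells 22 were higher and 7 lower.

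The circadian clock list held Dbp and 16 other tested genes. With IFN-γ, 4 of the 16 were called higher and 9 lower in sgRNA2 cells, 8 and 3 in sgRNA1 cells, and 12 and 2 in Rosa26 cells, with medians of −0.47, 0.16 and 0.84. In vehicle 12 were higher with sgRNA2 than with sgRNA1 and 2 lower, against 33.2% and 29.1% of all tested genes. Tef, the close relative of Dbp, averaged 20.2 CPM with IFN-γ and 40.4 CPM with vehicle in sgRNA2 cells, 16.8 and 23.6 CPM in sgRNA1 cells, and 44.4 and 25.8 CPM in Rosa26 cells. Per3, a period gene, averaged 13.1 and 32.5 CPM, 8.50 and 7.93 CPM, and 26.2 and 10.502 CPM in the same order. Both fell in sgRNA2 cells, Tef by 1.06 and Per3 by 1.37 on the log2 scale (adjusted p = 3.02e-09 and 8.66e-08). Both rose in Rosa26 cells, by 0.82 ± 0.08 and 1.36 ± 0.14 (adjusted p = 2.85e-08 and 8.32e-08). Arntl and Cry1 went another way in sgRNA2 cells, with changes of 0.47 ± 0.10 and 1.01 ± 0.10 (adjusted p = 0.000461 and 6.75e-08). The list genes were named after their values had been seen.

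Respiration was represented by mt-Co1, the mitochondrially encoded subunit of complex IV (chrM:5328-6872, plus strand). It stood at 2862 and 2759 CPM with sgRNA2 and IFN-γ, against 6564 and 6462 CPM with vehicle. It stood at 2104 and 2168 CPM with sgRNA1 and IFN-γ, against 3097 and 3209 CPM with vehicle. Rosa26 cells gave 5938 and 6371 CPM with IFN-γ, against 2169.5 and 1953 CPM with vehicle. As for Klhl24 and Pdcd4, the sgRNA2 vehicle and Rosa26 IFN-γ libraries were the highest. The list of mitochondrially encoded mRNAs held 12 other tested genes. With IFN-γ, none was called higher and 9 lower in sgRNA2 cells, none and 11 in sgRNA1 cells, and 4 and 3 in Rosa26 cells. Their sgRNA2 over sgRNA1 difference in vehicle had a median of −0.15, with 1 called higher and 3 lower, against 1.07 ± 0.05 for mt-Co1 (adjusted p = 2.76e-12).

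The share of counts from all mitochondrial genes was 0.628% and 0.533% with sgRNA2 and IFN-γ, against 1.12% and 1.14% with vehicle. It was 0.544% and 0.540% with sgRNA1 and IFN-γ, against 0.814% and 0.839% with vehicle, and 1.03% and 1.18% with Rosa26 and IFN-γ, against 0.670% and 0.620% with vehicle. The share thus ran with the members, but mt-Co1 is itself a member and makes up much of it, so the share is not a separate measure. The 12 other tested mitochondrial mRNAs had a median sgRNA2 over sgRNA1 difference of −0.15 in vehicle, unlike the members. In IFN-γ they ran with the members, since 10 were called lower and 0 higher with the mean of both guides than in Rosa26 cells. The median of that difference was −0.98 on the log2 scale. The part of the share in the other genes' values was not tested. Without mt-Co1 the members summed to 1015 and 1041 CPM with sgRNA2 and IFN-γ, against 2144 and 2090.3 CPM with vehicle. Those sums were 722 and 724 CPM with sgRNA1 and IFN-γ, against 839.9 and 824 CPM with vehicle, and 1653 and 1641 CPM with Rosa26 and IFN-γ, against 486 and 490.2 CPM with vehicle.

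Gm29216 is annotated as a pseudogene of 492 bases (chr1:24615706-24616197, minus strand), and over 483 aligned bases it is 99.79% identical to mt-Co1, with 1 mismatch. Its counts are uncertain to that extent, and its 2 sgRNA2 vehicle libraries had 9.21 and 32.5 CPM while its sgRNA1 IFN-γ libraries had 0.457 and 2.77 CPM. Libraries of 1 group thus differed severalfold in this gene.

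Redox and detoxification enzymes numbered 5, and all were called higher with sgRNA2 than with sgRNA1 in both treatments. Mgst1, a microsomal glutathione transferase (chr6:138140316-138156755, plus strand), had 81.2 and 79.6 CPM with sgRNA2 and IFN-γ, against 92.6 and 86.4 CPM with vehicle. It had 39.6 and 38.8 CPM with sgRNA1 and IFN-γ, against 40.01 and 40.2 CPM with vehicle. Rosa26 libraries had 78.0 and 84.8 CPM with IFN-γ, against 21.5 and 20.5 CPM with vehicle. Each guide line held about the same level with and without IFN-γ, at that of Rosa26 with IFN-γ for sgRNA2 and between the 2 Rosa26 groups for sgRNA1. The guide difference was about equal in vehicle (1.18 ± 0.06, adjusted p = 1.02e-11) and in IFN-γ (1.14 ± 0.06, adjusted p = 1.73e-10).

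Ephx1, the microsomal epoxide hydrolase, had 25.01 and 25.7 CPM with sgRNA2, 4.45 and 3.78 CPM with sgRNA1 and 4.09 and 5.35 CPM with Rosa26 in vehicle. The sgRNA1 and Rosa26 libraries overlapped, and sgRNA2 stood 6.21-fold above sgRNA1 (2.63 ± 0.17, adjusted p = 4.34e-10). Prxl2a, a peroxiredoxin-like protein, had 120.0 and 124 CPM with sgRNA2 and IFN-γ, against 258 and 250.5 CPM with vehicle. It had 77.5 and 79.3 CPM with sgRNA1 and IFN-γ, against 101 and 102 CPM with vehicle, and 235 and 234 CPM with Rosa26 and IFN-γ, against 86.3 and 89.5 CPM with vehicle. In both guide lines its IFN-γ libraries lay below their vehicle libraries. The difference between the guides in IFN-γ lost its call for Ephx1 without the first sgRNA1 IFN-γ library (adjusted p = 0.0953), and for Dcxr without the second sgRNA1 (0.12) or the second sgRNA2 IFN-γ library (0.0794). Ddah2, which degrades methylated arginines, and Dcxr, a carbonyl reductase, had Rosa26 ratios of 2.83 and 2.67 and vehicle guide differences of 1.32 ± 0.05 and 1.18 ± 0.20.

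Lipid and glycan enzymes comprised Galnt15, Tmem86a, Hacd4 and St3gal5. Galnt15, which starts O-linked glycans, had the second highest Rosa26 ratio at 8.03. Galnt15 stood at 8.86 and 8.31 CPM with sgRNA2 and IFN-γ, against 16.3 and 16.1 CPM with vehicle, and at 5.53 and 4.88 CPM with sgRNA1 and IFN-γ, against 5.14 and 4.43 CPM with vehicle. Its Rosa26 libraries had 25.6 and 28.0 CPM with IFN-γ, against 3.12 and 3.38 CPM with vehicle. Its sgRNA1 ratio of 1.09 was among those nearest to the limit. Tmem86a, a lysoplasmalogenase, had 47.7 and 46.1 CPM with sgRNA2, 19.9 and 21.9 CPM with sgRNA1 and 11.3 and 11.1 CPM with Rosa26 in vehicle, which did not overlap. All 4 genes were called higher with sgRNA2 than with sgRNA1 in both treatments, by 1.07 to 1.77 in vehicle and 0.47 to 1.15 in IFN-γ on the log2 scale. Of the whole set of 50, 49 were called higher in vehicle and 42 in IFN-γ (33.2% and 23.4% of all tested genes). Hacd4, an acyl-CoA dehydratase of fatty acid elongation, overlaps Focad on the opposite strand, and St3gal5 is the synthase of the ganglioside GM3. The difference between the guides in IFN-γ lost its call for St3gal5 without the second sgRNA1 (adjusted p = 0.148) or the first sgRNA2 IFN-γ library (0.12).

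Vesicle, cytoskeleton and small GTPase genes numbered 7, all called higher with sgRNA2 than with sgRNA1 in both treatments. Coro6, a coronin of the actin cytoskeleton (chr11:77462411-77470484, plus strand), had the highest vehicle level relative to Rosa26 with both guides. Coro6 stood at 12.1 and 13.6 CPM with sgRNA2 and IFN-γ, against 52.2 and 51.0 CPM with vehicle. It stood at 7.31 and 6.401 CPM with sgRNA1 and IFN-γ, against 11.4 and 11.9 CPM with vehicle. Rosa26 libraries had 7.82 and 7.44 CPM with IFN-γ, against 1.99 and 2.39 CPM with vehicle. Both guide lines in vehicle were above Rosa26 with IFN-γ, and both had lower levels with IFN-γ than with vehicle, with no overlap. The guides differed in vehicle (2.17 ± 0.10, adjusted p = 5.98e-12) and in IFN-γ (1.01 ± 0.12, adjusted p = 1.73e-06).

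Elmo3, an engulfment and motility protein, and Arhgef19, a guanine nucleotide exchange factor, were also members. Elmo3 had 68.2 and 64.1 CPM with sgRNA2, 26.1 and 24.5 CPM with sgRNA1 and 19.6 and 18.8 CPM with Rosa26 in vehicle. Arhgef19 had 28.1 and 26.8 CPM with sgRNA2, 14.9 and 17.1 CPM with sgRNA1 and 17.5 and 17.5 CPM with Rosa26 in vehicle, and its Rosa26 ratio of 2.51 was the lowest of the 50. Rab3d, a GTPase of regulated secretion, Appl2, an endosomal adaptor, Psrc1, a spindle protein, and Emc9, of the ER membrane protein complex, had Rosa26 ratios of 4.76, 2.74, 3.08 and 2.83. In vehicle these 4 were higher with sgRNA2 than with sgRNA1 by 1.33 to 1.56 on the log2 scale. The difference between the guides in IFN-γ lost its call for Arhgef19 without the first sgRNA1 (adjusted p = 0.108) or the first sgRNA2 IFN-γ library (0.076), and for Emc9 without the second sgRNA1 IFN-γ library (0.0843).

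The remaining 7 members have no clear common role. Gm26724 (chr17:27201032-27203071, plus strand) is annotated as antisense and shares 19 exon bases with Lemd2 on the opposite strand. It had 6.87 and 8.67 CPM with sgRNA2 and IFN-γ, against 16.0 and 14.4 CPM with vehicle, and 0.863 and 1.248 CPM with sgRNA1 and IFN-γ, against 3.76 and 2.25 CPM with vehicle. Rosa26 cells gave 5.40 and 5.60 CPM with IFN-γ, against 1.69 and 1.92 CPM with vehicle. Its guide difference in IFN-γ was the largest of the 50 (2.99 ± 0.24, adjusted p = 2.89e-08). Gm37123 (chr3:32454587-32455757, plus strand) is listed as a transcript still to be tested by experiment and had 5.45 and 5.46 CPM with Rosa26 and IFN-γ, against 0.562 and 1.04 CPM with vehicle. Lrrc61 had a vehicle guide difference of 0.71 ± 0.22 (adjusted p = 0.0103) and overlaps Rarres2 on the opposite strand over 30.6% of its exons. Its call was lost without the second sgRNA1 vehicle library (adjusted p = 0.0881) or the first sgRNA2 vehicle library (0.0759). Macrod1, Mettl27, Phyhd1 and Proser3 had Rosa26 ratios of 2.77, 2.75, 2.68 and 2.89, and 47.0% of the Phyhd1 exons overlap Gm28035 on the same strand.

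The edges of the rule were close to other genes. Gm37123 and Gm26724 were nearest inside the CPM limit at 5.45 and 5.50 CPM, and Slc12a5 and Ypel2 nearest outside at 4.81 and 4.73 CPM. Arhgef19 and Mxd4 were nearest inside the Rosa26 ratio limit at 2.51 and 2.54, and Hcfc1r1 and Ccng2 outside at 2.497 and 2.491. For the sgRNA1 ratio, Lrrc61 and Galnt15 were inside at 1.092 and 1.086, and Car9 and Lilr4b outside at 1.1001 and 1.1024. For the sgRNA2 ratio, Lrrc61 and Mgst1 were inside at 0.992 and 0.899, and Gla and Adgra2 outside at 1.134 and 1.365.

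By annotation (GENCODE vM21, GRCm38), 47 of the 50 genes are protein coding. They lie on 18 chromosomes, with 6 on chromosome 6 as the most on any, and no pair lies within 200 kb. Their merged exons had a median length of 3305 bases, against 4167 bases for 13357 tested genes matched by symbol. Exons of 13 members overlap another gene on the opposite strand.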

How the data were processed

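RNA of 12 libraries of 4T1 cells was sequenced, 2 for each of 6 groups. The file the authors deposited holds raw read counts, 1 whole number per gene and library. STAR 2.4.0, HTSeq, DESeq2 1.10 and mm10 are named by the submitters' processing notes without their roles, and the sources used here give neither the annotation nor the counting settings. Per the labels' protocols the libraries came from an Illumina TruSeq kit, which does not mark strand. Genes were filtered with edgeR's filterByExpr (minimum count 10, minimum total 15), scaled by TMM and fitted with edgeR 4.0.16 (R 4.3.3) in a quasi-likelihood model with 1 term per group over all 12 libraries. Genes were called at an adjusted p below 0.05 (Benjamini-Hochberg, 13601 genes), and each SE is the fold change divided by the root of F, so it restates the test. Levels are CPM by column total, with counting error smallest in the genes with most counts, and the lowest member count was 9 in a library. Tested on simulated data, the sgRNA2 over sgRNA1 fit found 95% of 1.5-fold and 100% of 2-fold changes in vehicle (13204 genes), and 86% and 99% in IFN-γ (13199 genes). The simulation gave every gene the same fixed spread and changed only a small set of genes, none with low counts. Its shares need not hold for members with low counts or a larger spread.

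The members and gene lists were chosen with earlier results of these data known. The rule for named genes took the 10 members with the highest Rosa26 IFN-γ level, the 10 with the highest Rosa26 ratio, those on a list, the 5 with the largest guide differences each way, the 5 with the most extreme guide levels relative to Rosa26 and those nearest each limit. It named 30, and the other 20 were named after their values had been seen: Rab3d, Frat2, Abcc3, Zscan2, Hacd4, Abtb1, Psrc1, Vdr, Proser3, Emc9, Macrod1, Ace, Mettl27, Appl2, Phyhd1, Dcxr, Dhx34, St3gal5, Hdac11 and Tle6. Gene names were matched to GENCODE vM21, 49 by symbol and Prxl2a by a synonym. Libraries of a group differed by a chi-square of 2.73 to 7.07 per degree of freedom, so none repeated another within sampling noise. Alternatives were other scalings, DESeq2 1.42.0, no filter, only the libraries compared, each library left out, a replicate block and other limits of the rule.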

Additional observations from a re-analysis of the deposited data

Results flagged for a closer look

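Mmp9, which encodes gelatinase B, was the only one of the 50 genes with called guide differences of opposite sign in the 2 treatments. In IFN-γ its log2 fold change of sgRNA2 over sgRNA1 was −0.12 ± 0.04 (adjusted p = 0.0261, edgeR's quasi-likelihood test), and in vehicle it was 0.59 ± 0.04 (adjusted p = 1.14e-09). The libraries of the guides did not overlap in either treatment, at 192 and 194 CPM with sgRNA2 against 225 and 226 CPM with sgRNA1 in IFN-γ. The difference between the treatments was not tested.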

How the results depend on the processing

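Under each scaling, filter, tool and left-out library tried, 48 to 49 of the 50 genes were called higher with sgRNA2 than with sgRNA1 in vehicle, with a median of 1.47 to 1.62 on the log2 scale, and 37 to 43 in IFN-γ, with a median of 0.81 to 0.88. The single lower call in IFN-γ (Mmp9) became 0 with upper quartile scaling and with only the 4 libraries of the comparison, and was 0 to 1 when a library was left out. The number of genes meeting the rule was 96 with TMM-scaled CPM, 88 with a minimum of 1 CPM, 118 with a Rosa26 ratio of 2, 28 with a ratio of 3 and 91 with a looser limit on the guide ratio. It was 49 to 61 when 1 library was left out. With upper quartile scaling the median over all genes shifted by −0.12 for IFN-γ in sgRNA2 cells and by 0.14 for the guides over Rosa26 in vehicle. Under it the 113 list genes outside the members had 14 in place of 22 calls higher with IFN-γ in sgRNA2 cells, and 16 in place of 25 calls lower with the guides in vehicle.

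Among single genes, the guide difference in IFN-γ of Frat2 ran between −0.012 and 0.31 with 1 library left out, being below 0 without the first sgRNA1 IFN-γ library (adjusted p = 0.98, edgeR). That of Vdr ran between −0.21 and 0.016, being above 0 without the second sgRNA1 or the second sgRNA2 IFN-γ library (adjusted p = 0.951 and 0.952). Neither was called with all libraries. IFN-γ calls were lost when 1 IFN-γ library was left out for Arhgef19, Ephx1, Macrod1, Tle6, Dcxr, Emc9, St3gal5, Lrrc61 and Mmp9, and for Lrrc61 also with DESeq2 (adjusted p = 0.0735). Vehicle calls were lost only for Lrrc61, without the second sgRNA1 or the first sgRNA2 vehicle library (adjusted p = 0.0881 and 0.0759). Calls were gained by Asb2 in IFN-γ without the first or the second sgRNA2 vehicle library (adjusted p = 0.0479 and 0.0477) or the first sgRNA2 IFN-γ library (0.0488), by Frat2 in vehicle without the second sgRNA1 vehicle library (0.0206), and by Mxd4 in IFN-γ with upper quartile scaling (0.0321). The cause was not tested.

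Same-numbered libraries of the guides did not deviate together (r = 0.05 in vehicle, −0.01 in IFN-γ). The labels do not say whether the numbers pair samples, and these values cannot settle it. With the replicate block, 49 genes were called higher with sgRNA2 in vehicle and Mxd4 was called in IFN-γ too (0.25, adjusted p = 0.0476). In Rosa26 and in sgRNA2 cells, IFN-γ and vehicle had r = −0.27 and −0.28, and with a crossed replicate block, added after the data were seen, 49 genes were called higher in vehicle and 42 in IFN-γ. At this depth the lowest member count was 9 in a library, and all 50 genes passed the filter on low counts.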
